A study of Homo sapiens with 10 samples.

Results

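The 32 genes described here belong to the NRF2 pathway of antioxidant defence and detoxification. They comprise the transcription factor NRF2 itself (gene NFE2L2), its inhibitor KEAP1, and 30 genes that NRF2 is known to control or that work with those genes. Members were chosen by a fixed list of gene names, matched to the Ensembl IDs of a table of read counts, and all 32 were found among its 57736 gene IDs.

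The 10 RNA libraries come from 3 established lines of human lung cancer that differ in their p53 mutation. The change is V157F in the line NCI-H2087, whereas NCI-H441 (R158L) and NCI-H2110 (R158P) are altered at the neighbouring residue. Every line was transfected with a control siRNA or with one that targets p53, a short RNA that lowers its transcript. There were 2 libraries for each line and arm, except in NCI-H2110, where each arm is a single library numbered replicate 2. The sample titles call the p53 siRNA arm a knockout, whereas the protocol describes transfection with siRNA, so the arm is called p53 siRNA here. All cells compared were transfected and all carried mutant p53, and there was no untransfected or wild-type p53 group. Each mutation is held by 1 line, so mutation and line cannot be told apart. The labels do not say whether replicates were separate cultures, so the p-values speak only of the spread among the libraries sequenced.

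NRF2 is made constantly and, in unstressed cells, KEAP1 holds it for ubiquitin-dependent destruction. Oxidants and electrophiles modify KEAP1, NRF2 then accumulates, pairs with a small MAF protein and binds antioxidant response elements in DNA near its target genes. In lung cancers the pathway is often active through mutations of KEAP1 or NFE2L2, and its targets make glutathione, supply NADPH, reduce peroxides and quinones, and export conjugated toxins. The protein level and activity of NRF2 were not measured here.

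The library totals ran from 18336672 to 25810934 counts, and 17978 genes passed the filter on low counts and were tested. Levels are CPM, read counts divided by a library size scaled by TMM, fold changes are on the log2 scale, and ± is a standard error unless SD is named. All 9 markers of lung adenocarcinoma epithelium were detected in every library, with a summed level of 3056 to 9451 CPM. In NCI-H2110 the surfactant gene SFTPB (1.02 and 0.65 CPM) and the aspartic protease gene NAPSA (0.39 and 0.35 CPM) were close to 0. Fibroblast markers summed to 12.4 to 68.2 CPM, with up to 4 of 6 at 0 in a library, and immune or endothelial markers to 0.513 to 7.84 CPM, with up to 3 of 6 at 0. Some of these markers were detected, COL1A1 at 12.1 to 48.7 CPM in every library and LUM at 27.6 to 39.8 CPM in NCI-H441. CD14 was at 6.81 and 7.45 CPM in NCI-H2110.

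The DNA sequence that links these genes is the antioxidant response element, whose core was searched here as TGACNNNGC on both strands, N being any base. RefSeq promoters (GRCh38.p14, from 250 bases before to 50 bases after a gene's start) were at hand for 23 of the 32 members. The core was present in 8 of these 23 genes (34.8%) and in 4384 of all 27305 genes with a promoter (16.1%). Of 45 other genes of the pathway, 16 held it (35.6%). The genes with a match in this window were KEAP1, GCLM, GPX2, TXNRD1, PGD, ME1, CBR1 and EPHX1. Genes such as NQO1, GCLC, SRXN1 and AKR1C1 to AKR1C3 had none of these letters in the window, which says nothing of elements farther away. The following 29-base stretches show 1 match for each of these 8 genes, so that their letters can be compared, each 5′ to 3′ with the searched core in capitals.
GCLM, chr1:93909446-93909474, plus strand: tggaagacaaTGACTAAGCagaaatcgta
GPX2, chr14:64942849-64942877, plus strand: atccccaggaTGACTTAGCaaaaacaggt
KEAP1, chr19:10502784-10502812, plus strand: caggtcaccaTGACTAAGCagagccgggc
EPHX1, chr1:225825266-225825294, plus strand: tgagattggcTGACTTGGCaggactgtgc
TXNRD1, chr12:104215670-104215698, plus strand: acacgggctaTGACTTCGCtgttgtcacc
PGD, chr1:10398853-10398881, minus strand: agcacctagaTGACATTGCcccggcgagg
ME1, chr6:83431170-83431198, minus strand: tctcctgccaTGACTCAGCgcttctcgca
CBR1, chr21:36069855-36069883, minus strand: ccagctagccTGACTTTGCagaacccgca
The core lay 30 bases before the gene start in GCLM, 118 in GPX2, 27 in KEAP1, 74 in EPHX1, 95 in TXNRD1, 197 in PGD, 133 in ME1 and 155 in CBR1, counted in KEAP1 and EPHX1 from the second of the listed starts. KEAP1 held 1 more match, 50 bases before that start, ME1 held 1 more, 15 bases after its start, and TXNRD1 held 2 more, 4 bases before the same start and 98 before its other start. GCLM and KEAP1 share the same 9 letters, TGACTAAGC. The core overlaps the AP-1 site TGACTCA where its middle letters are TCA, as in ME1, and that shorter motif was in 2 of the 23 members (8.7%) and in 6.05% of all genes. A match describes these letters and is not a measured binding site.

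A second set of sequences matters for reading the counts of the AKR1C enzymes, which reduce ketones and aldehydes with NADPH and act on steroid hormones. Their coding sequences are near-copies of each other. Over 972 coding bases, AKR1C1 and AKR1C2 differ at 19 positions (98% identical), AKR1C1 and AKR1C3 at 83 (91.5%), and AKR1C2 and AKR1C3 at 87 (91.0%). Coding bases 111 to 140, from GENCODE 29 transcripts, hold 6 of the differences between AKR1C1 and AKR1C2, and capitals mark positions that differ among the 3 genes.
AKR1C1: cACCaaattGgcaatTgaagcTggCttccG
AKR1C2: cGTCaaattGgcaatAgaagcCggGttccA
AKR1C3: cACAaaattAgcaatAgaagcTggGttccG
Of all stretches of 50 bases in their annotated transcripts, 38.9% for AKR1C2 and 28.6% for AKR1C1 also occur in another gene, and 2495 of them are common to this pair. The share was 4.53% for AKR1C3. The split of reads between AKR1C1 and AKR1C2 is therefore uncertain, and their sum is given beside them. SRXN1 shares 84.7% of its stretches with the overlapping gene AL121758.1, AKR1B10 14.6% with AKR1B15 and a pseudogene, NFE2L2 13.2% with AC019080.1, and OSGIN1 12.1% with AC009119.2. Values of these genes carry the same uncertainty.

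More of the 32 genes differed between lines than between siRNA arms, and the same held for all genes. By edgeR's quasi-likelihood test (adjusted p below 0.05), 42.1% to 61.8% of all genes differed between lines. Between arms it was 8.68% in NCI-H2087 and 0.00556% in NCI-H441. NCI-H2110 had the highest control-arm mean for 22 of the 32 genes, NCI-H2087 for 7 and NCI-H441 for 3. NCI-H441 had the lowest for 22, NCI-H2087 for 7 and NCI-H2110 for 3. The NCI-H2110 value is a single library, and the same counts were not made over all genes. All 32 genes together took 21140 CPM in the NCI-H2110 control library and 16822 CPM in its p53 siRNA library, against 5872 to 6890 CPM in NCI-H2087 and 5287 to 5510 CPM in NCI-H441. Without the AKR1C genes and AKR1B10 the sums were 10337 and 8554 CPM in NCI-H2110, 5660 to 6586 CPM in NCI-H2087 and 5281 to 5504 CPM in NCI-H441. In bulk RNA of this kind, fewer cells that express a gene and less of its RNA per cell cannot be told apart.

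**Figure D1:**
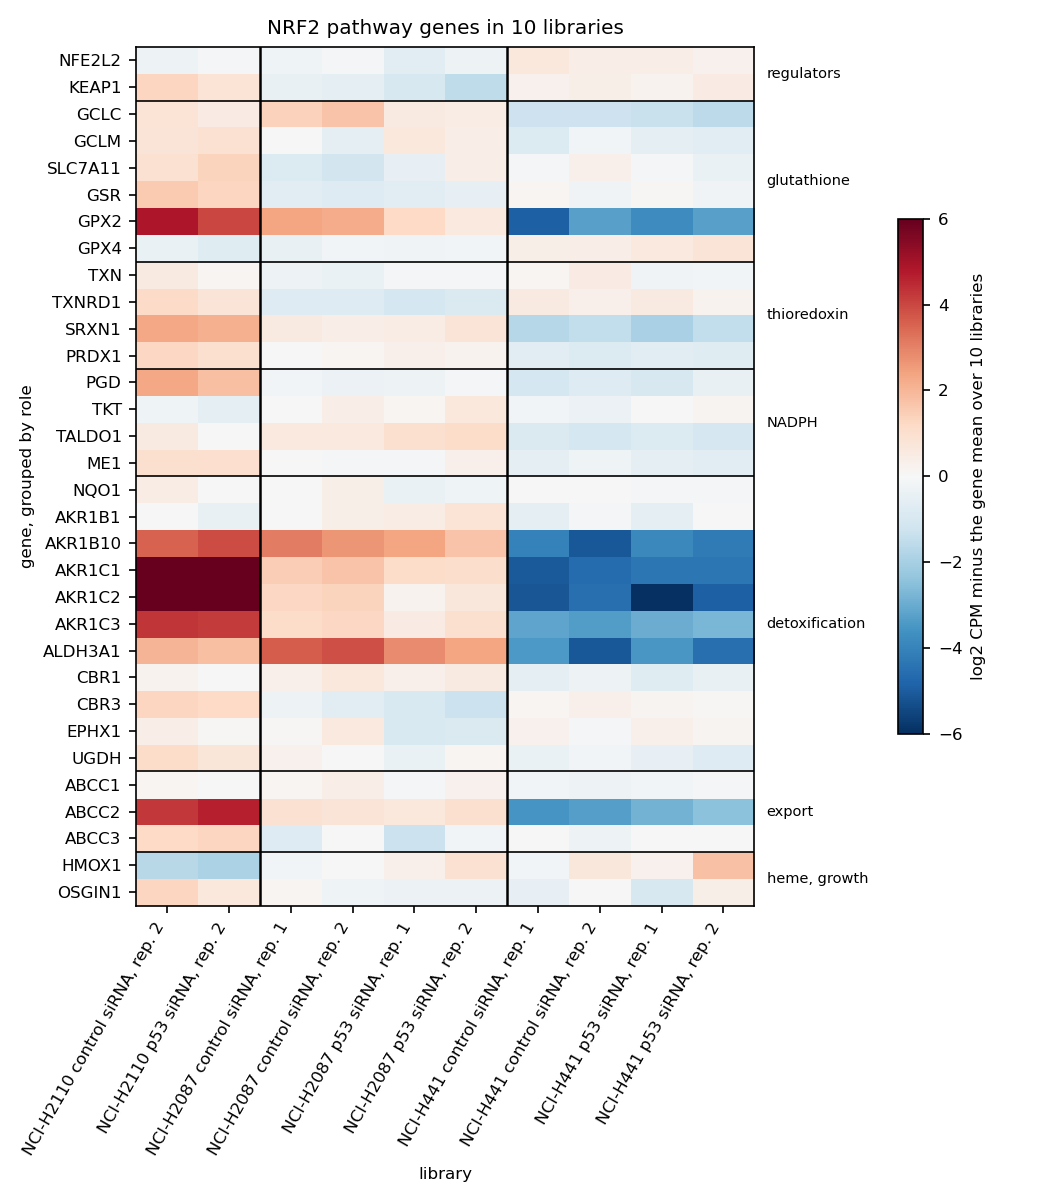
Rows are the 32 genes grouped by role and columns the 10 libraries. Colour is log2 CPM (prior count of 2) minus the gene's mean over the 10 libraries, with the scale ending at 6 in either direction. AKR1C1, AKR1C2, GPX2 and ABCC2 are high in both NCI-H2110 libraries and low in all 4 NCI-H441 libraries, and the rows of NQO1 and ABCC1 are nearly even.

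NCI-H2110 was compared with each other line over the mean of both siRNA arms, since it has 1 library per arm. It therefore adds nothing to the estimated spread. The standard errors and p-values of its line comparisons use the spread within NCI-H2087 and NCI-H441. Against NCI-H2087, 26 of the 32 genes were called by edgeR's quasi-likelihood test (adjusted p below 0.05), 21 higher and 5 lower in NCI-H2110. Lines differ widely, and 61.8% of all genes tested were called in this comparison, 30.4% higher and 31.4% lower. Against NCI-H441 it was again 26 of 32, 23 higher and 3 lower, where 61.4% of all genes were called, 30.3% higher and 31.1% lower. The members' calls were split unevenly, where those of all genes were split nearly evenly. With replicates as a block the counts were 30 (70.8% of all genes) and 29 (70.5% of all genes). The median difference of the 32 genes was 0.94 against NCI-H2087 and 1.27 against NCI-H441, and over all genes it was -0.02 and -0.03. In 19 genes (59.4%) both NCI-H2110 libraries lay above all 8 others, as they did for 24.3% of all genes, and in 1 gene, HMOX1, both lay below all others (22.1% of all genes).

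NCI-H2087 and NCI-H441 were compared in their control siRNA libraries, 2 per line. Here 21 of 32 genes were called, 14 higher and 7 lower in NCI-H2087, beside 42.1% of all genes (22% higher, 20.1% lower), and with replicates as a block 24 were (55.7% of all genes). For 15 of the 32 genes (46.9%) all 4 NCI-H441 libraries lay below all 6 others, and over all genes this share was 12.5%. They lay above all others for NFE2L2 and GPX4 (6.25%, beside 14% of all genes). The NCI-H2087 libraries lay above all others for ALDH3A1, CBR1 and TALDO1 (9.38%, beside 13.4% of all genes) and below them for CBR3, GSR, KEAP1 and TXNRD1 (12.5%, beside 11.3%). In 9 genes the order NCI-H2110 above NCI-H2087 above NCI-H441 held with all 3 differences called: ABCC2, AKR1B10, AKR1C1, AKR1C2, AKR1C3, GPX2, PGD, PRDX1 and SRXN1. The control-arm means of 7 genes put NCI-H441 between a higher NCI-H2110 and a lower NCI-H2087, and all 3 differences were called in 4 of them, GSR, KEAP1, SLC7A11 and TXNRD1. The share of all genes with either of these orders was not counted. The calls of PGD, GSR, KEAP1 and SLC7A11 between NCI-H2087 and NCI-H441 were each lost when any of 2 or 3 single control libraries was left out. The differences were then 0.52 to 0.75 for PGD, -0.64 and -0.54 for GSR, -0.84 to -0.71 for KEAP1, and -0.97 and -0.89 for SLC7A11. Fewer of all genes were called in these fits as well. Between NCI-H2110 and NCI-H441, SLC7A11 was not called in the control arm alone (adjusted p = 0.0806), nor KEAP1 and TXNRD1 in the p53 siRNA arm alone (0.175 and 0.151). AKR1B10 was not called between NCI-H2110 and NCI-H2087 in the control arm alone (0.122). AKR1C1 and ALDH3A1 would not have passed the filter on the NCI-H441 libraries alone and entered the test through the lines where they are high, so they had to differ.

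**Figure D2:**
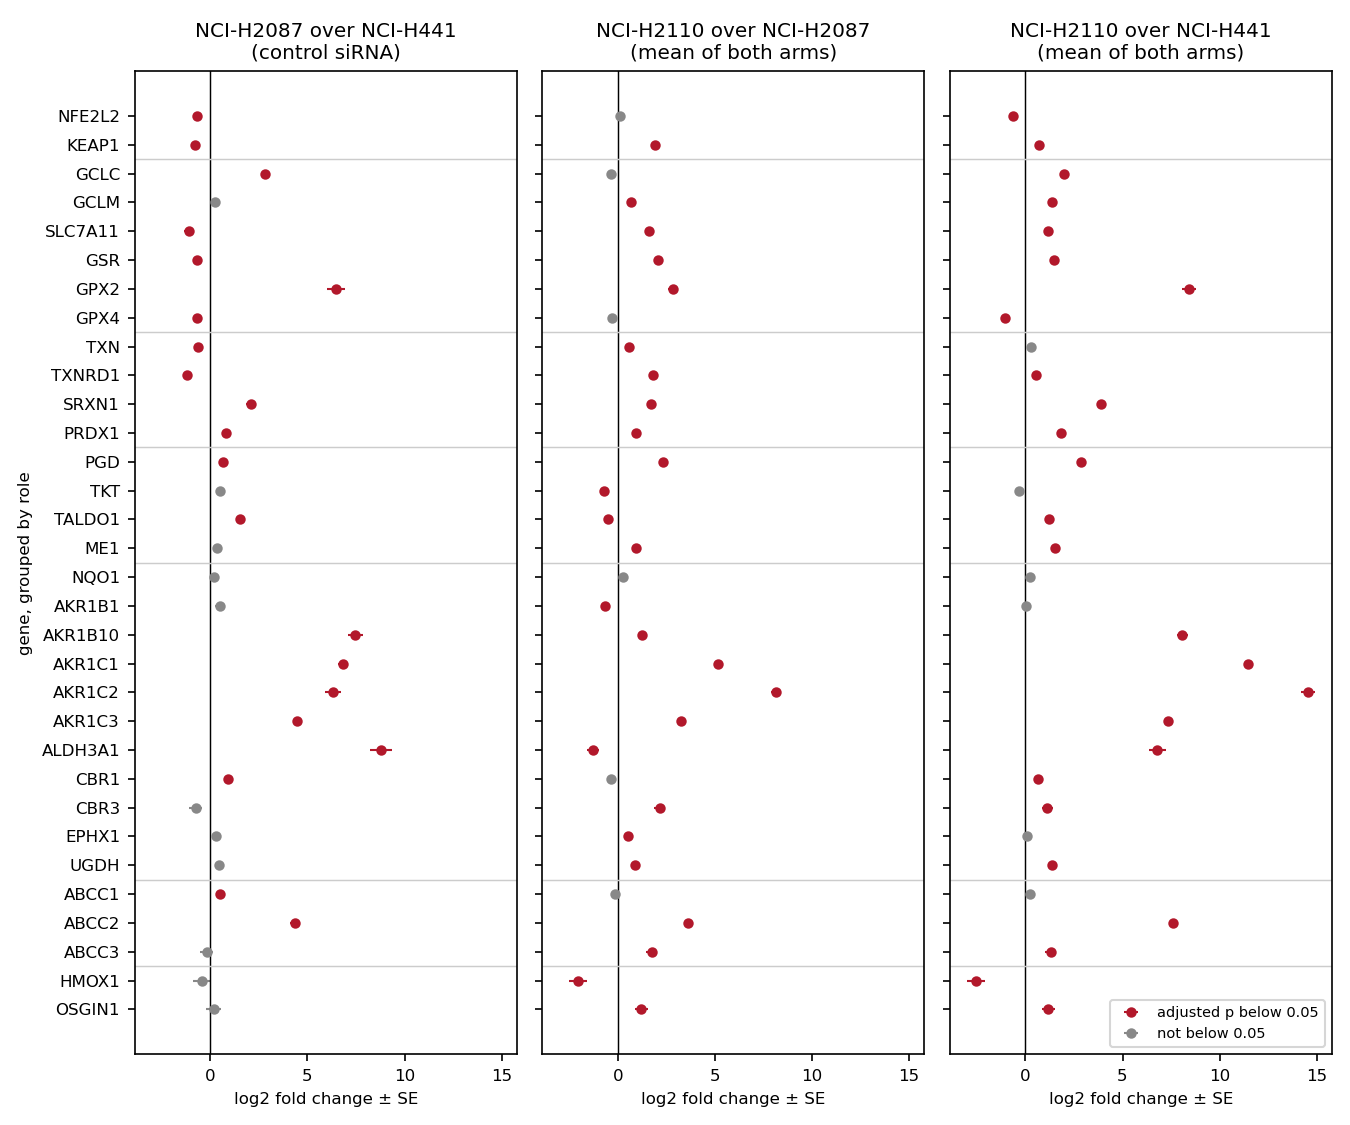
Each point is the log2 fold change of 1 gene between lines with its standard error, red where the adjusted p was below 0.05. In the left panel NCI-H2087 is over NCI-H441 in control siRNA libraries, and in the other panels NCI-H2110 is over each other line as the mean of both arms. The AKR1C genes, AKR1B10, GPX2 and ABCC2 lie to the right of 0 in all 3 panels, and HMOX1 lies to the left.

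Of the regulators, NFE2L2, which encodes NRF2, was highest in NCI-H441, the line with the lowest control-arm mean for most of the 32 genes. Its level was 574 and 497 CPM in the NCI-H441 controls and 496 and 443 CPM with p53 siRNA. It was 308 and 352 CPM against 242 and 300.1 CPM in NCI-H2087, and 298 and 349 CPM in the control and p53 siRNA libraries of NCI-H2110. All 4 NCI-H441 libraries lay above the 6 others. The difference was -0.64 ± 0.15 for NCI-H2110 over NCI-H441 (adjusted p = 0.00493) and -0.70 ± 0.17 for NCI-H2087 over NCI-H441 (adjusted p = 0.00934). The former was not called in the p53 siRNA arm alone (-0.43, adjusted p = 0.123). The latter was lost without NCI-H2087 control replicate 1 (adjusted p = 0.078) or NCI-H441 control replicate 1 (0.0647). NCI-H2110 and NCI-H2087 were not called different (0.11 ± 0.15, adjusted p = 0.55).

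KEAP1, the adaptor that targets NRF2 for destruction, had its highest RNA level in NCI-H2110. It was at 62.4 CPM in the control and 45.5 CPM in the p53 siRNA library of that line. The NCI-H441 libraries held 31.0 and 33.4 CPM in the control arm and 30.1 and 36.8 CPM in the p53 siRNA arm. In NCI-H2087 the values were 19.2 and 18.02 CPM against 13.1 and 9.0 CPM. The lines did not overlap, and NCI-H2110 exceeded NCI-H2087 by 1.89 ± 0.18 (adjusted p = 1.24e-05) and NCI-H441 by 0.70 ± 0.18 (adjusted p = 0.00693), the latter not called in the p53 siRNA arm alone (0.44, adjusted p = 0.175). Transcript levels do not show whether the protein is functional, and mutations in KEAP1 or NFE2L2 were not analysed here.

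Among the 6 genes of glutathione synthesis, import and use, GPX2 differed most. GPX2 encodes a glutathione peroxidase of epithelial cells. It stood at 149 CPM in the NCI-H2110 control and 82.8 CPM in the p53 siRNA library. In NCI-H2087 it was at 26.4 and 23.6 CPM in the controls and 11.7 and 7.48 CPM with p53 siRNA, while the 4 NCI-H441 libraries held 2 to 12 reads each (0.09 to 0.45 CPM). NCI-H2110 exceeded NCI-H2087 by 2.84 ± 0.25 (adjusted p = 8.28e-06), and the 3 lines did not overlap.

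GCLC, the catalytic subunit of glutamate-cysteine ligase, the rate-limiting step of glutathione synthesis, had another order. Its NCI-H2087 controls held 508 and 632 CPM, above 336 CPM in the NCI-H2110 control and 82.0 and 80.2 CPM in the NCI-H441 controls. NCI-H2087 exceeded NCI-H441 by 2.81 ± 0.18 (adjusted p = 3.37e-06) and NCI-H2110 exceeded NCI-H441 by 2.01 ± 0.14 (adjusted p = 1.45e-06). With p53 siRNA NCI-H2087 held 278 and 258 CPM and NCI-H2110 held 274 CPM, and over both arms these lines did not differ beyond the threshold (-0.36 ± 0.14, adjusted p = 0.0508). GCLC was called lower in NCI-H2110 with replicates as a block (adjusted p = 0.0156), with DESeq2, with library totals and in the control arm alone (-0.76, adjusted p = 0.0141).

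GCLM, the modifier subunit of the same ligase, was at 129 and 142 CPM in NCI-H2110, above every other library, though not called over NCI-H2087 in the p53 siRNA arm alone (adjusted p = 0.308) or without NCI-H2087 control replicate 2 (0.0637). It was at 75.7 and 52.9 CPM in the NCI-H2087 controls and at 42.6 and 67.2 CPM in the NCI-H441 controls, which overlapped (0.23 ± 0.24, adjusted p = 0.49). The 2 subunits of one enzyme thus ranked the lines differently. SLC7A11, the cystine importer, was at 227 and 304 CPM in NCI-H2110, 116 and 150 CPM in the NCI-H441 controls and 68.5 and 55.3 CPM in the NCI-H2087 controls. Its difference between NCI-H2087 and NCI-H441 was -1.10 ± 0.28 (adjusted p = 0.0105). The call was lost without NCI-H2087 control replicate 2 (-0.97) and without NCI-H441 control replicate 2 (-0.89). GSR, which regenerates reduced glutathione, was at 253 and 209 CPM in NCI-H2110, 73.0 to 92.8 CPM in NCI-H441 and 49.5 to 60.8 CPM in NCI-H2087. GPX4, which reduces lipid peroxides and protects from ferroptosis, was highest in NCI-H441 (309 to 406 CPM, against 146 to 214 CPM in the other lines).

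All 4 genes of the thioredoxin system were higher in NCI-H2110 than in NCI-H2087, by 0.56 to 1.81, TXN not in the p53 siRNA arm alone (adjusted p = 0.364). TXNRD1, thioredoxin reductase, held 1380.0 and 1065 CPM in NCI-H2110, 722 to 933 CPM in NCI-H441 and 302 to 374 CPM in NCI-H2087. SRXN1, sulfiredoxin, which repairs overoxidized peroxiredoxins, held 237 and 211 CPM in NCI-H2110, 62.1 to 80.5 CPM in NCI-H2087 and 12.4 to 17.2 CPM in NCI-H441. These genes therefore placed the other 2 lines in opposite order, with NCI-H2087 over NCI-H441 at -1.22 ± 0.17 for TXNRD1 (adjusted p = 0.000443) and 2.07 ± 0.21 for SRXN1 (adjusted p = 6.05e-05). PRDX1, a peroxiredoxin, followed the order of SRXN1 at 2414 and 2003 CPM in NCI-H2110, 1049 to 1280.2 CPM in NCI-H2087 and 585 to 663 CPM in NCI-H441. TXN, thioredoxin, was at 547 and 409 CPM in NCI-H2110 and overlapped with NCI-H441 (324 to 519 CPM).

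Of the 4 genes of NADPH supply, PGD and ME1 were highest in NCI-H2110 and TKT and TALDO1 were not. PGD makes NADPH in the oxidative branch of the pentose phosphate pathway and stood at 640.2 and 449 CPM in NCI-H2110. It held 99.97 to 117 CPM in NCI-H2087 and 61.5 to 92.8 CPM in NCI-H441, with no overlap between the lines. ME1, malic enzyme, was at 189 and 196 CPM in NCI-H2110 and at 60.5 to 121 CPM elsewhere. TKT and TALDO1, of the non-oxidative branch of that pathway, were lower in NCI-H2110 than in NCI-H2087, by -0.73 ± 0.19 (adjusted p = 0.00697) and -0.51 ± 0.14 (adjusted p = 0.00894). Neither was called in the control arm alone, at -0.50 (adjusted p = 0.147) and -0.05 (adjusted p = 0.843).

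The 11 genes of quinone, carbonyl and aldehyde detoxification held the widest differences. AKR1C2 was at 9073 CPM in the NCI-H2110 control and 6554 CPM in the p53 siRNA library. In NCI-H2087 it was at 35.01 and 37.2 CPM in the controls and 17.4 and 23.6 CPM with p53 siRNA, and in NCI-H441 it had 8 and 15 reads in the controls and 1 and 10 with p53 siRNA. The difference from NCI-H2087 was 8.15 ± 0.28 (adjusted p = 5.17e-08). That from NCI-H441 was 14.53 ± 0.36 (adjusted p = 9.7e-09), a size that rests on the few reads of NCI-H441. AKR1C2 alone took 0.899% of all counts in the NCI-H2110 control (95% Wilson interval 0.896% to 0.903%, counting error only) and 0.648% (0.644% to 0.651%) in its p53 siRNA library.

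AKR1C1 was at 787 and 737 CPM in NCI-H2110, 17.5 to 27.3 CPM in NCI-H2087 and 4 to 8 reads a library in NCI-H441. The sum of AKR1C1 and AKR1C2, which does not depend on how shared reads were split between them, was 9860 and 7291 CPM in NCI-H2110, 35.4 to 64.5 CPM in NCI-H2087 and 0.369 to 0.814 CPM in NCI-H441. The ratio of AKR1C2 to AKR1C1 counts was 11.5 and 8.90 in NCI-H2110 and 0.962 to 1.49 in NCI-H2087, a comparison that depends on how the shared reads were split. AKR1C3 held 644 and 601 CPM in NCI-H2110, 46.6 to 78.0 CPM in NCI-H2087 and 3.11 to 4.79 CPM in NCI-H441. Its difference of NCI-H2110 from NCI-H2087 was 3.27 ± 0.16 (adjusted p = 1.74e-07).

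AKR1B10, a retinal and aldehyde reductase, separated NCI-H441 from both other lines. It was at 298 and 376 CPM in NCI-H2110, 210.1 and 161 CPM in the NCI-H2087 controls and 0.67 to 1.64 CPM in NCI-H441. NCI-H2087 exceeded NCI-H441 by 7.47 ± 0.40 (adjusted p = 1.59e-06). ALDH3A1, an aldehyde dehydrogenase, was instead highest in NCI-H2087, at 34.3 and 40.9 CPM in the controls and 20.04 and 14.4 CPM with p53 siRNA, above 11.4 and 9.84 CPM in NCI-H2110, a difference not called in the p53 siRNA arm alone (adjusted p = 0.15). Its NCI-H441 libraries held 0 to 4 reads, so the fitted difference of 8.79 from NCI-H2087 depends on the prior count and is not a measured size.

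NQO1, the quinone reductase often used as a readout of NRF2 activity, was the 1 gene called in none of the 3 line comparisons. Its values were 973 and 718 CPM in NCI-H2110, 735 and 915 CPM in the NCI-H2087 controls and 725 and 729 CPM in the NCI-H441 controls. The lines overlapped, and the differences were 0.29 ± 0.14 for NCI-H2110 over NCI-H2087 (adjusted p = 0.0923), 0.25 ± 0.14 over NCI-H441 (adjusted p = 0.135) and 0.18 ± 0.16 between the latter 2 (adjusted p = 0.386). With replicates as a block NQO1 was called higher in NCI-H2110 than in both other lines. CBR3, a carbonyl reductase, and UGDH, which makes the glucuronic acid donor, were higher in NCI-H2110 than in both other lines. EPHX1, the microsomal epoxide hydrolase, was 0.51 ± 0.17 higher in NCI-H2110 than in NCI-H2087 (adjusted p = 0.0273), and AKR1B1, the aldose reductase, had a difference of -0.65 ± 0.23 (adjusted p = 0.0297). Neither was called in the control arm alone, at 0.04 (adjusted p = 0.907) and -0.21 (adjusted p = 0.622). EPHX1 was also lost without replicate 1 of either NCI-H2087 arm (0.102 and 0.054), and AKR1B1 without replicate 2 of either (0.0737 and 0.0683). Neither gene differed between NCI-H2110 and NCI-H441 beyond the threshold.

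Of the 3 export pumps, ABCC2 differed most. ABCC2, which exports glutathione and glucuronide conjugates, was at 182 and 238 CPM in NCI-H2110, 14.6 to 18.7 CPM in NCI-H2087 and 0.73 to 1.64 CPM in NCI-H441. NCI-H2110 exceeded NCI-H2087 by 3.63 ± 0.16 (adjusted p = 1.1e-07) and NCI-H2087 exceeded NCI-H441 by 4.37 ± 0.25 (adjusted p = 1.95e-06). ABCC3 was at 184 and 198 CPM in NCI-H2110 and 33.2 to 82.7 CPM elsewhere. ABCC1 was at 75.6 and 67.0 CPM in NCI-H2110 and did not differ from either other line beyond the threshold (-0.14 ± 0.15 and 0.23 ± 0.15). Every NCI-H441 library lay below all others for ABCC1, and it was called higher in NCI-H2087 than in NCI-H441. That call was lost in edgeR without the filter (0.49 ± 0.21, adjusted p = 0.0713). It was also lost when any single control library of these lines was left out, with differences of 0.33 to 0.61.

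HMOX1, heme oxygenase, which NRF2 induces and which its competitor BACH1 represses, was the gene called lower in NCI-H2110 than in both other lines. It held 6.77 and 5.85 CPM in NCI-H2110, below 19.2 to 41.4 CPM in NCI-H2087 and 19.6 to 73.8 CPM in NCI-H441. The difference was -2.06 ± 0.44 from NCI-H2087 (adjusted p = 0.00265) and -2.55 ± 0.45 from NCI-H441 (adjusted p = 0.00084). In the control arm alone the former was -1.58 with an adjusted p of 0.0576. BACH1 RNA was at 108 and 140.3 CPM in NCI-H2110 and 41.8 to 54.8 CPM in the other libraries, a gene looked up after the HMOX1 values were seen, and its part in them was not tested. OSGIN1, an oxidative stress-induced growth inhibitor, was at 15.4 and 9.66 CPM in NCI-H2110 and 3.16 to 7.94 CPM elsewhere, and was not called in the p53 siRNA arm alone (adjusted p = 0.0952 and 0.178).

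The p53 siRNA lowered 3 of the 32 genes in NCI-H2087 and raised none past the threshold: GCLC, EPHX1 and GPX2. This share of 9.38% lay close to the 8.68% of all genes called in that line (4.98% higher, 3.69% lower). An unadjusted p below 0.05 was held by 12 of the 32, beside 4553 of all 17978 genes. The median change of the 32 genes was -0.18, and of all genes -0.03. With p53 siRNA, 14 genes (43.8%) had both libraries below both controls and 8 (25%) had both above, where the shares of all genes were 30.4% and 25.4%.

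GCLC stood at 508 and 632 CPM in the controls and at 278 and 258 CPM with p53 siRNA. The 2 arms did not overlap, and the change was -1.09 ± 0.17 (adjusted p = 0.00519). EPHX1, which detoxifies epoxides, fell from 180.2 and 257 CPM to 88.5 and 93.2 CPM, a change of -1.27 ± 0.21 (adjusted p = 0.00713), again without overlap. GPX2 fell from 26.4 and 23.6 CPM to 11.7 and 7.48 CPM, a change of -1.38 ± 0.31 (adjusted p = 0.0257). The 3 calls were lost without control replicate 2, where the changes were -0.91 for GCLC, -0.98 for EPHX1 and -1.45 for GPX2. GPX2 was also lost without control replicate 1 (-1.29) and without p53 siRNA replicate 2 (-1.10). Without p53 siRNA replicate 1 the 3 genes stayed called. Each library left out leaves 1 in its arm, and fewer of all genes were called each time.

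**Figure D3:**
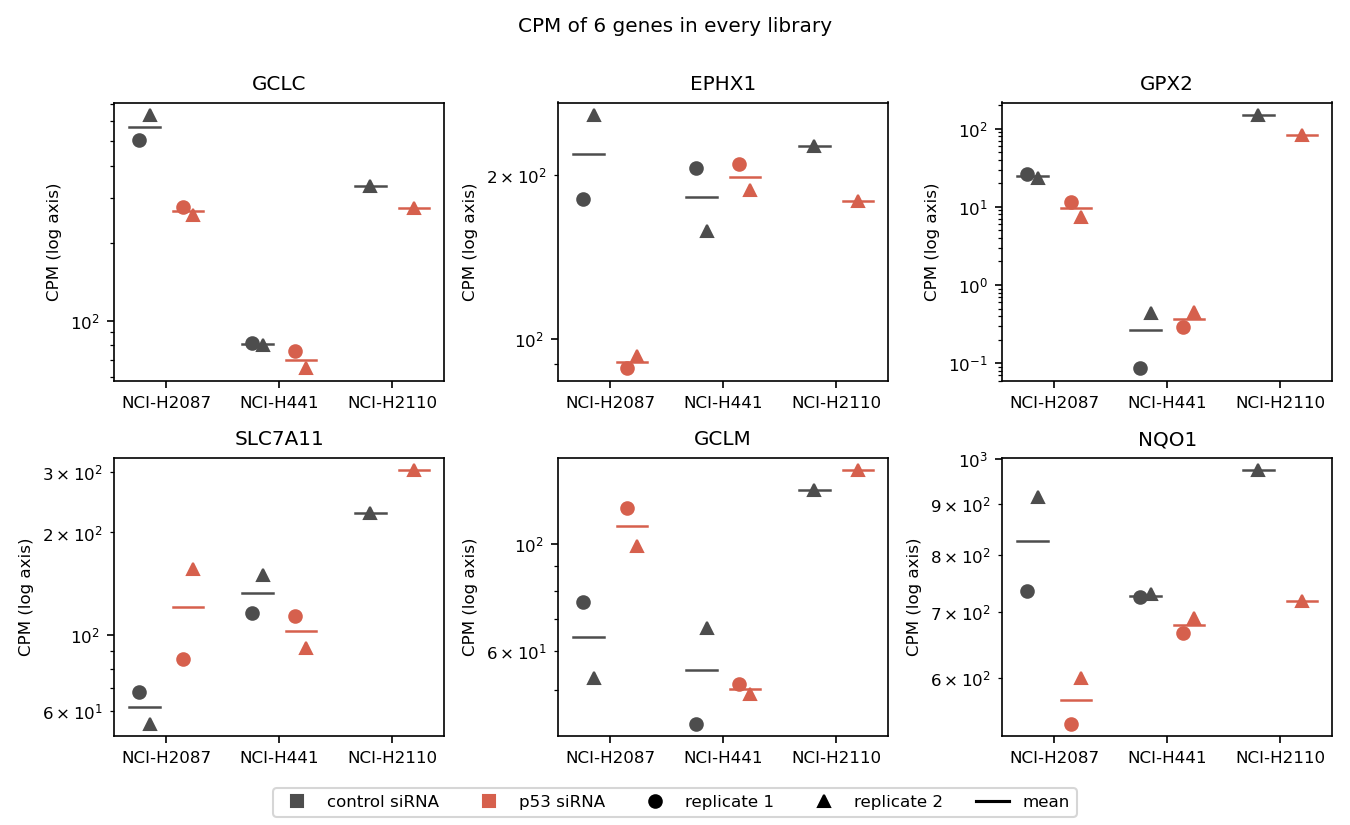
CPM on log axes for GCLC, EPHX1, GPX2, SLC7A11, GCLM and NQO1 in every library. Circles are replicate 1, triangles replicate 2, grey the control siRNA and red the p53 siRNA, and short lines are means. In NCI-H2087 the red points lie below the grey ones for GCLC, EPHX1, GPX2 and NQO1 and above them for SLC7A11 and GCLM.

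The number of calls in NCI-H2087 depended on whether same-numbered libraries were treated as pairs. With the replicate number as a block, 15 of the 32 genes were called (25.4% of all genes), 5 higher and 10 lower. The higher genes were AKR1B1, GCLM, HMOX1, SLC7A11 and TALDO1. The lower genes were AKR1B10, AKR1C1, AKR1C2, AKR1C3, ALDH3A1, EPHX1, GCLC, GPX2, KEAP1 and NQO1. The detoxification genes were 7 of these 10, and all 4 AKR1B10 and AKR1C genes lay below 0 in both fits. With library totals in place of TMM, the median of all genes moved from -0.03 to -0.21, and 8 of the 32 were called, all lower, beside 3.55% of all genes called higher and 7.15% lower.

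Several genes of NCI-H2087 did not pass in the main edgeR fit, which has no block, but had arms that did not overlap. DESeq2, also without a block, called GCLM and SLC7A11 higher and ALDH3A1, KEAP1 and NQO1 lower. SLC7A11 was at 68.5 and 55.3 CPM in the controls and 85.1 and 156.7 CPM with p53 siRNA (0.97 ± 0.28, adjusted p = 0.0604, with the block 0.00783). GCLM was at 75.7 and 52.9 CPM against 119 and 99.1 CPM (0.76 ± 0.25, adjusted p = 0.0868, with the block 0.00312). The catalytic and modifier subunits of glutamate-cysteine ligase thus had opposite signs in this line. KEAP1 was at 19.2 and 18.02 CPM against 13.1 and 9.0 CPM (-0.75 ± 0.22, adjusted p = 0.0616, with the block 0.00375). NQO1 was at 735 and 915 CPM against 539.9 and 599.99 CPM (-0.53 ± 0.16, adjusted p = 0.0676, with the block 0.00646). ALDH3A1 was at 34.3 and 40.9 CPM against 20.04 and 14.4 CPM (-1.13 ± 0.34, adjusted p = 0.0714, with the block 0.000691). The 4 genes of NADPH supply all lay above 0, by 0.03 to 0.44, and the thioredoxin genes between -0.21 and 0.25.

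Other genes moved in the same NCI-H2087 libraries. The summed level of the 9 epithelial markers was 4489 and 4182 CPM in the controls and 9451 and 9387 CPM with p53 siRNA. Most of it was KRT18, at 3348 and 3077 CPM against 7325 and 7238 CPM. The list was split, with 5 genes called higher and 1 lower, and 6 and 3 with the block. KRT19 was at 2.38 ± 0.21 (adjusted p = 0.000583) and SFTPB at -4.05 ± 0.41 (adjusted p = 0.00111). NKX2-1 was at 321 and 338 CPM against 245 and 180 CPM, and NAPSA at 33.7 and 32.8 CPM against 20.9 and 15.5 CPM. Called of all genes were 8.68%, and 25.4% with the block. No epithelial marker was at 0. Of 8 genes of the ATF4 response, which amino acid stress induces and which also drives SLC7A11, the summed level was 1772 CPM in p53 siRNA replicate 2 and 551 CPM in replicate 1, beside 711 and 818 CPM in the controls. The same replicate 2 held the highest SLC7A11 level of the line. Their part in these changes was not tested.

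In NCI-H441 none of the 32 genes was called, and 1 gene was called of all those tested (0.00556%). By edgeR 2 of the 32 were at an unadjusted p below 0.05, beside 796 of all 17978 genes. None was called by DESeq2 (0), and with replicates as a block 0 were called (0.417% of all genes). The 3 with the smallest p did not pass, each with an adjusted p of 0.933. TXN was at 409 and 519 CPM in the controls and 324 and 330.3 CPM with p53 siRNA (-0.50 ± 0.16). ABCC2 was at 0.73 and 0.89 CPM against 1.27 and 1.64 CPM (0.84 ± 0.28), and AKR1C3 at 3.56 and 3.11 CPM against 4.18 and 4.79 CPM (0.43 ± 0.22). These arms did not overlap, which held for 6 genes above (18.8%) and 6 below (18.8%), beside 17% of all genes in each direction.

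The estimates in NCI-H441 were small, with 27 of the 32 within 0.5 of 0 and a median of 0.06. The widest was AKR1C2 at -0.999 ± 0.66, which rests on 8 and 15 reads against 1 and 10. Of the genes called in NCI-H2087, GCLC was at 82.0 and 80.2 CPM against 75.9 and 65.1 CPM (-0.20 ± 0.17, adjusted p = 0.933), and EPHX1 at 206 and 157.4 CPM against 209 and 187 CPM (0.12 ± 0.20, adjusted p = 0.973). GPX2 had only 2 and 12 reads against 7 and 11 (0.41 ± 0.65, adjusted p = 0.972). HMOX1 was at 19.6 and 35.4 CPM against 25.6 and 73.8 CPM (0.85 ± 0.45, adjusted p = 0.933), with overlapping arms.

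The difference between the changes in these lines was tested directly, and none of the 32 genes passed (0.412% of all genes did). At an unadjusted p below 0.05 were 11 of them, beside 2380 of all 17978 genes. The 3 smallest p-values belonged to EPHX1 (-1.39 ± 0.29, adjusted p = 0.0887), GCLC (-0.89 ± 0.23, adjusted p = 0.159) and SLC7A11 (1.34 ± 0.39, adjusted p = 0.2). Here a negative value means a lower change in NCI-H2087 than in NCI-H441. DESeq2 called these same 3 genes. With replicates as a block 9 were called (8.92% of all genes): GCLM, SLC7A11 and TXN with a higher change in NCI-H2087, and AKR1B10, AKR1C3, EPHX1, GCLC, GPX2 and KEAP1 with a lower one. For SLC7A11 the difference was 0.83 without NCI-H2087 p53 siRNA replicate 2 and 1.71 without replicate 1.

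Across the 3 lines, in a model with line and siRNA, none of the 32 genes passed (0.395% of all genes did, 0.0556% as lower). An unadjusted p below 0.05 was held by 7 of them, beside 2553 of all 17978 genes. With replicates as a block 0 were called (0.395% of all genes). The smallest p-values were those of GCLC (-0.58 ± 0.16, adjusted p = 0.148), GPX2 (-0.97 ± 0.28, adjusted p = 0.158) and AKR1C2 (-0.74 ± 0.23, adjusted p = 0.184). DESeq2 called GCLC and AKR1C2, both lower. GCLC was lower with p53 siRNA in all 5 pairs of same-numbered libraries, and its range of adjusted p over the libraries left out was 0.102 to 0.433.

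**Figure D4:**
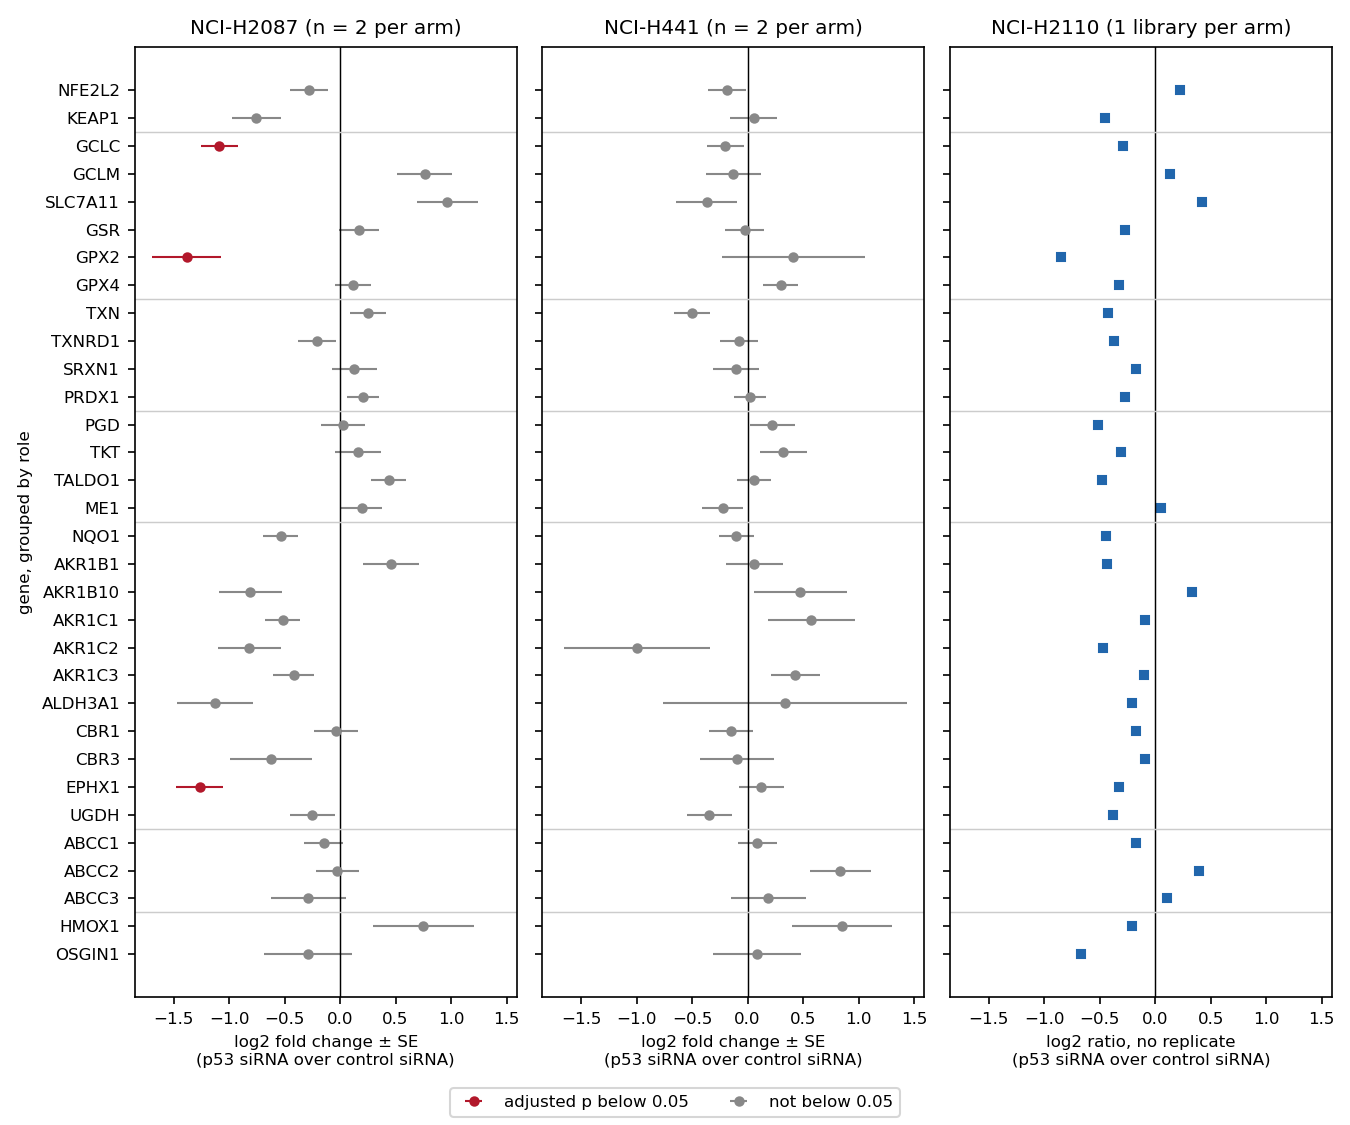
Each row is 1 gene and each panel 1 line, with the log2 change of p53 siRNA over control siRNA on the horizontal axis. Bars are standard errors in NCI-H2087 and NCI-H441, red marks an adjusted p below 0.05, and squares in NCI-H2110 are ratios of single libraries without an error. GCLC, EPHX1 and GPX2 are red in NCI-H2087, no gene is red in NCI-H441, and most squares in NCI-H2110 lie between -0.5 and 0.

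NCI-H2110 had 1 library per arm, so its p53 siRNA change has no test. None of the 32 genes changed by 2-fold or more, and of 12385 genes with at least 50 counts in either library 1.49% did. The median log2 ratio of the 32 genes was -0.27, and of all genes -0.03, with 7 of the 32 above 0. The highest were SLC7A11 (227 against 304 CPM, 0.42), ABCC2 (182 against 238 CPM, 0.39) and AKR1B10 (298 against 376 CPM, 0.34). The lowest were GPX2 (149 against 82.8 CPM, -0.85), OSGIN1 (15.4 against 9.66 CPM, -0.67) and PGD (640.2 against 449 CPM, -0.51). GCLC was at 336 and 274 CPM and AKR1C2 at 9073 and 6554 CPM, both lower with p53 siRNA, and these pairs of single libraries cannot show whether the differences exceed replicate spread.

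A wider list of the pathway was read from the same fits, and 51 of its 54 genes were tested. In NCI-H2087 p53 siRNA called 6 of them, 3 higher and 3 lower, where 8.68% of all genes were called. Among the higher genes, GSTO1, a glutathione transferase of the omega class, rose from 192 and 187 CPM to 359 and 385 CPM (0.97 ± 0.16, adjusted p = 0.00648). FTL, the ferritin light chain that stores iron, rose from 2699 and 2946 CPM to 4836 and 7887 CPM (1.17 ± 0.24, adjusted p = 0.0187). BLVRB, which reduces biliverdin, rose from 20.01 and 22.6 CPM to 32.9 and 45.7 CPM (0.88 ± 0.24, adjusted p = 0.0493). The lower genes were GSTM2 (-1.28 ± 0.25, adjusted p = 0.0159), GCNT3 (-1.57 ± 0.32, adjusted p = 0.0179) and GSTA4 (-2.26 ± 0.54, adjusted p = 0.0334), and reads of the near-identical GSTM genes may be split among them. With replicates as a block 28 of the 51 were called (25.4% of all genes), 12 higher and 16 lower. Of the 6 iron and heme genes of this list, FTL and BLVRB were the 2 called, and with the block 4 were called higher and 2 lower.

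In NCI-H441 none of the 51 genes passed with edgeR or with its replicate block. An unadjusted p below 0.05 was held by 5 of them, beside 796 of all 17978 genes. None of the 51 passed for the difference between lines or across lines. With the block 6 passed for the difference, 1 higher and 5 lower, beside 8.92% of all genes. Between lines the wider list followed the 32 genes in part. NCI-H2110 was higher than NCI-H2087 for 29 of 51 and lower for 10, beside 30.4% and 31.4% of all genes. It was higher than NCI-H441 for 28 and lower for 10, beside 30.3% and 31.1%. PTGR1, which reduces prostaglandin and alkenal double bonds, was at 568 and 571 CPM in NCI-H2110, 49.3 to 65.8 CPM in NCI-H2087 and 15.7 to 17.4 CPM in NCI-H441. MAFK, a small MAF partner of NRF2, was at 145 and 192 CPM in NCI-H2110 and 11.0 to 27.8 CPM elsewhere. SOD2, the mitochondrial superoxide dismutase, was at 295 and 426 CPM in NCI-H2110 and 47.5 to 80.8 CPM elsewhere. NNT, which makes mitochondrial NADPH, was at 143 and 147 CPM in NCI-H2110, 70.4 to 93.4 CPM in NCI-H2087 and 1.04 to 2.32 CPM in NCI-H441. GPX3, a secreted glutathione peroxidase chosen after its values were seen, had the opposite order at 9.68 and 9.71 CPM in NCI-H2110, 70.2 to 83.8 CPM in NCI-H2087 and 341 to 619 CPM in NCI-H441.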

How the data were processed

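The table deposited by the authors holds counts per gene, whole numbers whose totals differ between libraries, so they were taken as not normalized. Per the submitters' processing notes, Bowtie2, RSEM 1.2.12 and the hg19 build were used, without roles, so whether the counts are rounded RSEM estimates is not given in the sources used here. Symbols came from a names table (51959 IDs) and GENCODE 29 (342 more). The 32 members and the other lists were chosen with earlier results of these data known. Tests used edgeR 4.0.16 under R 4.3.3 (filterByExpr on 6 groups, TMM, quasi-likelihood test, two-sided, Benjamini-Hochberg over 17978 genes, 99.96% of counts). The group model left 4 residual degrees of freedom and the model of line and siRNA 6, or 2 and 4 with the replicate block. The labels do not say what the replicate number marks. The biological coefficient of variation was 19.8%. For NCI-H2110, CPM ratios used a prior count of 2. Members named with full statistics were those called, largest first, at most 12 a comparison, or otherwise the 3 smallest p-values. Other members are given by role, with statistics for some chosen after their values were seen. Replicates of 1 number were checked as pairs: the difference between replicates correlated between arms with r = 0.534 in NCI-H2087 and 0.595 in NCI-H441 over 9332 genes. Alternatives were DESeq2 1.42.0, other scalings, no filter, a replicate block and leaving out each library. The fits were tested on simulated data. The check of the targeted gene and 1 gene of the wider list are not reported here.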

Additional observations from a re-analysis of the deposited data

How the results depend on the processing

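Member counts per comparison, and the median ratio in NCI-H2110, were recomputed under alternatives. Of these values 76 stayed the same (counts within 1.5 times the main count). Another 5 moved, 5 rose from 0 and 1 fell to 0. Of values for named genes 570 kept direction and side of the threshold, 13 gained it, 8 lost it and 0 reversed. Among the 570 are ratios in NCI-H2110, which have no test and kept direction alone. In NCI-H2087 p53 siRNA called 3 members in the main fit. The count was 8 with library totals, 10 without the filter, 9 with DESeq2 and 15 with the replicate block. With a library of this line left out, members called ranged from none to more than the main count. Fewer of all genes were called each time. Of all genes in that line, 4.98% were called higher and 3.69% lower in the main fit. The shares were 5.27% and 3.94% without the filter, 7.2% and 4.66% with DESeq2, and 12.8% and 12.6% with the block. For the difference between lines, where 0 members were called, the count was 3 without the filter (all genes 1.52% higher, 1.24% lower). It was 3 with DESeq2 (1.6% higher, 0.951% lower) and 9 with the replicate block (4.66% higher, 4.26% lower). Across the lines, where 0 were called, it was 6 without the filter (1 higher, 5 lower) and 2 with DESeq2. Of all genes, 2.6% were higher and 1.23% lower without the filter, and 2.37% and 1.02% with DESeq2. The cause was not tested. The replicate block moved no other count of members by over 1.5 times: 21 became 24 between NCI-H2087 and NCI-H441, 26 became 30 and 29 for NCI-H2110, and the counts of 0 in NCI-H441 and across lines stayed 0. Leaving out a control library of NCI-H2087 or NCI-H441 lowered the calls between these lines, among members and among all genes. Against NCI-H2110, calls of members changed little or not at all when a library was left out, while fewer of all genes were called. In the comparisons of NCI-H2110, the libraries left out were those of the other line, never a single NCI-H2110 library. In either arm alone, fewer members and fewer of all genes were called in both of these comparisons. With 2 libraries per arm, and 1 in NCI-H2110, small changes were not detectable.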

Other observations

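The aryl hydrocarbon receptor (AHR) shares targets with the NRF2 pathway, and the receptor with 5 of its targets was read from the same fits. In NCI-H2087 p53 siRNA lowered 3 of these 6 genes and raised none past the threshold, where 8.68% of all genes were called. TIPARP lay the other way, at 381 and 394 CPM in the controls and 529 and 503 CPM with p53 siRNA (0.41 ± 0.15, adjusted p = 0.117), and was called higher with the replicate block (adjusted p = 0.0295). CYP1B1, a cytochrome P450 that oxidizes polycyclic hydrocarbons and oestrogens, fell from 36.6 and 32.5 CPM to 18.1 and 17.5 CPM (-0.96 ± 0.24, adjusted p = 0.0388). CYP1A1, the classic target, had 27 and 39 reads in the controls and 7 and 3 with p53 siRNA (-2.72 ± 0.59, adjusted p = 0.0225). AHRR, the repressor of the receptor, had 6 and 13 reads against 1 and 1 (adjusted p = 0.0233). AHR itself was at 347 and 397 CPM against 390 and 320 CPM. CYP1A2 had 0 reads in every NCI-H2087 library. In NCI-H441 none of the 6 passed with edgeR. CYP1B1 was the 1 gene with an unadjusted p below 0.05 there, at 181 and 127 CPM against 84.3 and 54.9 CPM (-1.14 ± 0.23, adjusted p = 0.696), and it was called lower with the replicate block (adjusted p = 0.00102).

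Between lines, CYP1B1 was at 648 and 596 CPM in NCI-H2110, 54.9 to 181 CPM in NCI-H441 and 17.5 to 36.6 CPM in NCI-H2087. AHRR was at 14.7 and 11.7 CPM in NCI-H2110 and at most 1.27 CPM in every other library. CYP1A1 was at 16.3 CPM in the NCI-H2110 control and 2.25 CPM in its p53 siRNA library, single libraries with no test. TIPARP, another target, was lower in NCI-H2110 than in NCI-H2087 (-2.72 ± 0.15, adjusted p = 3.72e-07).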
